A study of Mus musculus with 14 samples.

Results

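Genes of GABA signalling and of cortical interneurons were examined in mouse cortex by RNA sequencing. The members were 27 listed gene symbols: subunits of the GABA-A and GABA-B receptors, the enzymes and transporters that make, load, clear and break down GABA, the scaffold gephyrin, and markers and regulators of interneurons. Of these, 26 are rows of the deposited table of 34193 symbols, and all 26 passed the filter on low counts that left 13815 genes tested. The symbol Ndnf is not among the rows. Its RefSeq synonym A930038C07Rik is one, at a median of 14.5 CPM in both genotypes, but lies outside the list.

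The cortex came from C57BL/6J mice, all 8 weeks old. A group of 7 animals, 4 females and 3 males, was heterozygous for a knockout of Dnmt3a, which encodes a DNA methyltransferase. The other 7, also 4 females and 3 males, were wild-type littermates. The labels do not name the knockout allele, say whether it is germline or restricted to a cell type, or report pooling. No sorting of cells is mentioned. Sample titles begin with 1 of 6 numbers, the title prefix, and each prefix holds animals of both genotypes and a single sex. Prefixes 046, 047, 048 and 139 are called set A here (4 animals of each genotype) and prefixes 119 and 141 set B (3 of each). What a prefix marks is not given in the labels, and the 2 sets were drawn with results of these data known.

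GABA is the main inhibitory transmitter of the cortex. It is made from glutamate in interneurons by the enzymes GAD67 and GAD65, packed into vesicles, and released onto GABA-A receptors, which are chloride channels built of several subunits, and onto GABA-B receptors, which act through G proteins. Most cortical interneurons arise in the ganglionic eminences under transcription factors such as LHX6, MAF and SP9, and adult classes are told apart by proteins such as parvalbumin, calretinin and reelin. DNMT3A sets methylation in neurons at CG and at other cytosines.

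Total counts per animal lay between 8951835 and 14335406. Levels are given as CPM, a gene's counts scaled to the library total, with library sizes adjusted by TMM factors. Dnmt3a itself stood at 124 to 164 CPM in wild-type animals and at 84.3 to 118 CPM in heterozygotes, with no overlap. Its log2 fold change was -0.57 (SE 0.08, edgeR quasi-likelihood test, Benjamini-Hochberg adjusted p = 0.00774). Markers of excitatory cortical neurons summed to 2118 to 3212 CPM, so the labelled tissue carried its defining markers. Markers of striatum, the tissue beneath the cortex, summed to 313 to 1072 CPM over the animals. Mitochondrial transcripts took 0.571% to 0.860% of counts in set A and 1.11% to 1.99% in set B. Nothing in the labels says how RNA was extracted or in which runs, and p-values measure the spread between these animals.

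The 250 bases before the start of 3 genes are shown because these genes later part: Gad1 and Slc32a1 were higher, and Gabrg1 lower, in heterozygotes of set B. The sequences are RefSeq's, of build GRCm38.p6, written 5′ to 3′ on the gene's strand with each CG, the main target of DNA methyltransferases, in capitals.
Gad1: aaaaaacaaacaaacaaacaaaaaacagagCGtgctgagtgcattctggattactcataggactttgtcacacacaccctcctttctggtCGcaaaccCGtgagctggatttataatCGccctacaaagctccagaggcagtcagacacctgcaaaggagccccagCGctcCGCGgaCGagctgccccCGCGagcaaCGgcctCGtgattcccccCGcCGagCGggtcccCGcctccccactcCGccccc
Slc32a1: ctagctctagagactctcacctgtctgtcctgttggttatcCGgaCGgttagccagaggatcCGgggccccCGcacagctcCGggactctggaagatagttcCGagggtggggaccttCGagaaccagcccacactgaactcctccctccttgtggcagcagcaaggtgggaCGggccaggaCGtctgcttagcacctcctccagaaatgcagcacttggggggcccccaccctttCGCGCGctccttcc
Gabrg1: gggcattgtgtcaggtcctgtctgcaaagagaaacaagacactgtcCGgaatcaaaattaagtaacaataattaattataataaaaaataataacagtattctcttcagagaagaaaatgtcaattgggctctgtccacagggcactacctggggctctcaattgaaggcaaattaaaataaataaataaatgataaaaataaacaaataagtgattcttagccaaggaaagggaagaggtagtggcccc
The Gad1 window lies at chr2:70561879-70562128 on the + strand and holds 17 CG. The Slc32a1 window lies at chr2:158610508-158610757 on the + strand and holds 12 CG. The Gabrg1 window lies at chr5:70842618-70842867 on the - strand and holds 1 CG. A CG reads the same on both strands. In the genes later called higher in set B, the first window held from 8 CG (Gabrb2) to 37 CG (Gabbr2 and Reln). In those called lower it held 1 CG (Gabrg1) and 25 CG (Slc6a11). RefSeq's table had a window for 21 of the 26 genes, with a median of 14 CG against 6 over all 32851 windows of the same length. At least 10 CG were found in 15 of the 21 and in 37.8% of all windows. The sets are unlike. Members entered with their first window and all passed the filter on low counts. The 32851 windows were not limited to tested genes or to 1 window per gene. Methylation was not measured in these samples, so the windows describe sequence alone.

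Levels of different genes were compared per kilobase of exon, with exon lengths from GENCODE M21, which is of another build than the counts. The means spread widely between members (the plot of levels by gene). Gabbr1, the GABA-B subunit that binds the ligand, stood highest at 90.8 ± 4.32 CPM per kb (SD, n = 14), and Gabrb2, the β2 subunit of the GABA-A receptor, followed at 87.0 ± 10.4, with overlapping ranges. Gabbr2, the GABA-B subunit that couples to the G protein, stood at 48.3 ± 8.48 CPM per kb. Gabra3, the α3 subunit, stood at 41.6 ± 2.65 and Abat, the transaminase that breaks GABA down, at 39.4 ± 3.79. Slc32a1, the vesicular GABA transporter, and Gad1, which encodes GAD67, had nearly the same level, 36.4 ± 8.99 and 35.9 ± 5.54 CPM per kb. Gad2, which encodes GAD65, was at 28.6 ± 3.23. Among interneuron genes the calcium-binding protein gene Pvalb led with 34.0 ± 5.17 CPM per kb. The lowest of all were Gabrg3, the γ3 subunit, at 0.974 ± 0.117 and the transcription factor gene Sp9 at 1.08 ± 0.255, whose ranges also overlapped.

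**Figure D1:**
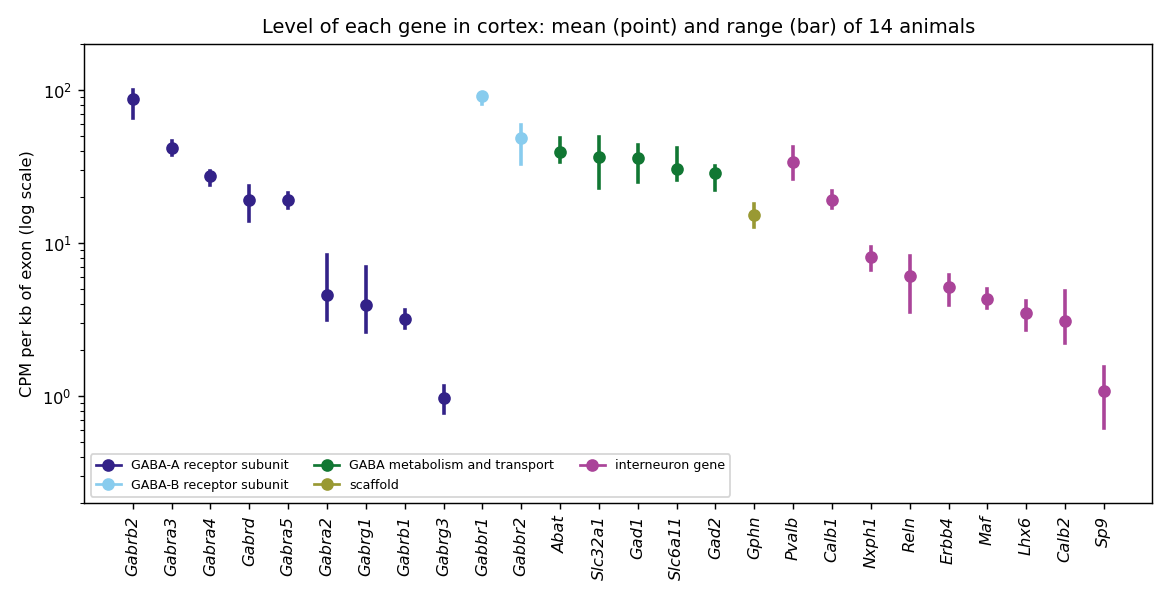
Level of each of the 26 genes on a log axis in CPM per kilobase of exon, as the mean (point) and the range (bar) of 14 animals, grouped by role. Levels run from 0.974 for Gabrg3 to 90.8 for Gabbr1, and the longest bars on the log axis belong to Gabra2, Gabrg1 and Sp9.

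The genes differed more in how far they varied between animals than these means show. Over the 14 animals the coefficient of variation of CPM was smallest for Gabbr1, 4.76%, and below 7% also for Gabra4, Gabra3 and Gabra5, which encode the α4, α3 and α5 subunits. It was largest for Gabrg1, the γ1 subunit, at 32.8%, followed by Gabra2 (α2) at 26.8%, Calb2 (calretinin) at 26.1% and Slc32a1 at 24.7%. Calb2 and Sp9 had mean levels of 5.37 and 5.43 CPM, the lowest on the CPM scale, where counting error is largest. Of the 26 genes, 13 span more than 100 kb, compared with 16.6% of the tested genes for which GENCODE M21 gave a span.

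The main question of the series is whether loss of a Dnmt3a copy changes expression in the cortex. Over all 14 animals none of the 26 genes passed the threshold of 0.05 (edgeR with sex as a term, adjusted p from 0.978 to 0.997). Over all tested genes 0.0145% were called, 1 higher and 1 lower. None of the 26 had an unadjusted p under 0.05, against 4% of all tested genes. The log2 fold changes of heterozygotes against wild type ran from -0.28 for Gabrg1 to 0.14 for Gabrb2, with a median of 0.03 against 0.00 over all tested genes. They were above 0 for 17 of the 26 genes and for 50.9% of all tested genes. For no member did the ranges of the genotypes part, which 0.123% of tested genes did. DESeq2 also called none of the 26. Because unsorted cortex was measured, fewer cells of a type and less RNA per cell cannot be told apart in any of these values.

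Among the 9 GABA-A subunits, the smallest p belonged to Gabrb2. It ran from 421 through a median of 547 to 624 CPM in wild-type animals and from 519 through 573 to 634 CPM in heterozygotes. Heterozygotes lay in the upper part of the same range, and the difference of 0.14 on the log2 scale (SE 0.09) did not pass (edgeR, adjusted p = 0.978). Gabrg1 ran from 20.7 through 30.4 to 55.1 CPM in wild type and from 21.2 through 25.0 to 39.1 CPM in heterozygotes, with a log2 fold change of -0.28 (SE 0.19). The highest wild-type animals were all of set B. Gabrg3 had a median of 11.3 CPM in wild type and of 11.7 CPM in heterozygotes, with highest values of 13.1 and 13.8 CPM and a log2 difference of 0.14 (SE 0.10). Gabrd, the δ subunit of receptors outside the synapse, ranged from 40.2 to 67.7 CPM and from 45.7 to 67.6 CPM, with a difference of 0.07 (SE 0.12). Gabra3, Gabra4, Gabra5 and Gabrb1 (β1) had log2 fold changes between -0.03 and 0.01 with standard errors of 0.06 to 0.07. Their genotype ranges overlapped over most of their length. Gabra2 was not called over all animals either (edgeR, adjusted p = 0.981). Its log2 fold change in the authors' deposited comparison was 0.03.

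Neither GABA-B subunit was called. Gabbr1 ran from 633 through 725 to 741 CPM in wild type and from 667 through 689.6 to 745 CPM in heterozygotes, a log2 fold change of -0.01 (SE 0.06). Gabbr2 ran from 219.7 through 312 to 384 CPM and from 273 through 329 to 394 CPM, a log2 fold change of 0.11 (SE 0.12). The lowest values of both genes were in wild-type animals of set B.

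In the group that handles GABA, Slc6a11 had the smallest p. It encodes GAT-3, the GABA transporter carried mainly by astrocytes. Its levels ran from 138 through 155 to 212 CPM in wild type and from 131 through 146 to 152 CPM in heterozygotes. Of the wild-type animals 4 exceeded every heterozygote, and the log2 fold change was -0.17 (SE 0.09, edgeR, unadjusted p = 0.0725, adjusted p = 0.978). Gad1 ran from 191 through 278 to 314 CPM and from 243 through 276 to 335 CPM, with a log2 fold change of 0.13 (SE 0.11). Its medians were nearly equal, and the lowest values were those of wild-type animals of set B. The log2 fold change was 0.03 for Gad2 (SE 0.08) and also for Slc32a1 (SE 0.17). Abat had a change of -0.02 (SE 0.07). Gphn, whose product gephyrin anchors glycine and GABA-A receptors, ranged over 47.5 to 62.5 CPM in wild type, and heterozygotes over 53.1 to 67.0 CPM, a difference of 0.07 (SE 0.07).

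The 9 interneuron genes showed no called difference either. Calb2 ran from 3.90 through 5.06 to 8.52 CPM in wild type and from 3.89 through 4.98 to 6.54 CPM in heterozygotes, with a log2 fold change of -0.15 (SE 0.18). Maf stood at 30.8 through 34.0 to 39.3 CPM and 32.3 through 35.1 to 41.5 CPM, a change of 0.06 (SE 0.07). Erbb4, the neuregulin receptor of interneurons, had 48.5 through 60.7 to 75.0 CPM and 57.5 through 64.8 to 76.2 CPM, a change of 0.08 (SE 0.10). Ranges of the genotypes overlapped over most of their length for all of these. Pvalb (0.08, SE 0.10), Reln (reelin, a secreted glycoprotein, 0.10, SE 0.16), Lhx6 (0.02, SE 0.10), Calb1 (calbindin, 0.01, SE 0.06), Nxph1 (a ligand of neurexins, 0.00, SE 0.08) and Sp9 (-0.09, SE 0.18) gave log2 fold changes within their standard errors.

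**Figure D2:**
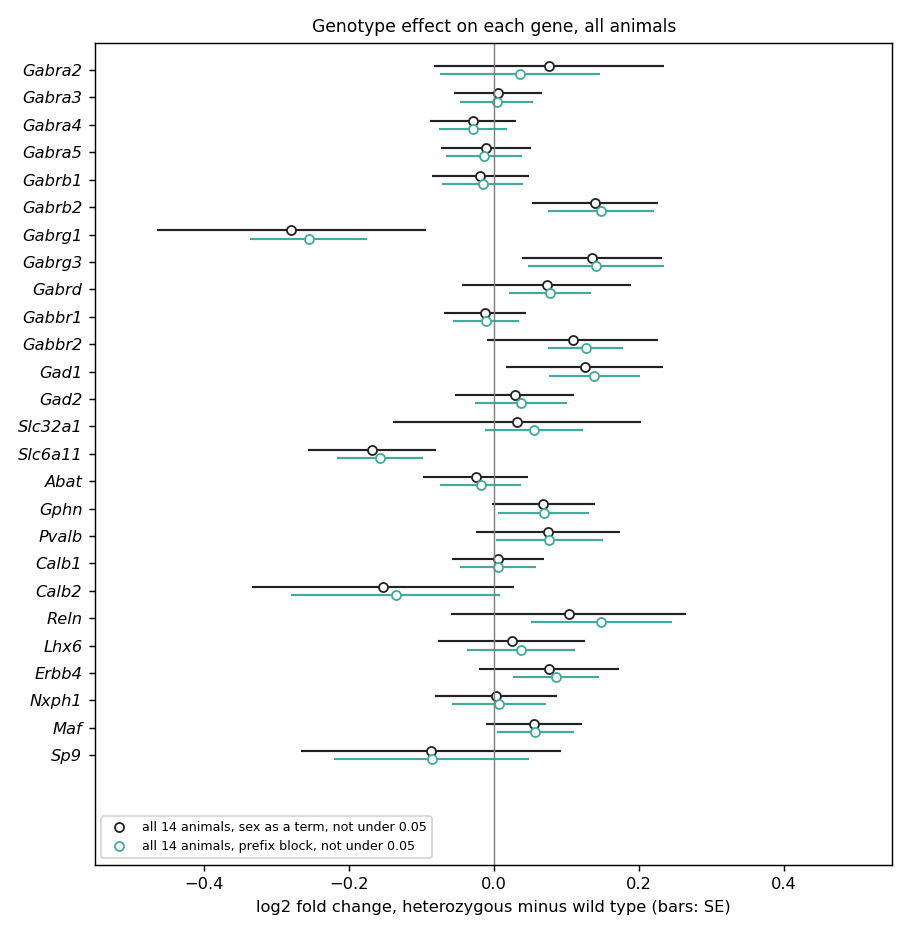
Log2 fold change of heterozygous against wild-type animals for the 26 genes (points) with its standard error (bars), over all 14 animals, with sex as a term or with a block for each prefix. All points are open because no adjusted p was under 0.05, and Gabrg1 lies farthest from 0 at -0.28 and -0.26.

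A block for each title prefix, which replaces the term for sex, again called 0 members, while 0.405% of all tested genes were called. In that fit Gabrg1 had the smallest adjusted p, with a log2 fold change of -0.26 (SE 0.08, edgeR, adjusted p = 0.184). With terms for sex and set, 0 members and 0.109% of genes were called. The authors' deposited table of their own genotype comparison gave an adjusted p under 0.05 for none of the 26 and for 0.191% of the genes it lists with one. The smallest member value in the authors' deposited table was 0.409, for Gabrg1.

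Wider lists of related genes gave no genotype call over all animals either. Of 22 other GABA genes in the table (receptor-associated proteins, chloride carriers, transporters) 17 were tested. The smallest p in each direction belonged to Slc12a2, the chloride importer NKCC1 (log2 fold change 0.13, SE 0.07), and to Slc6a13, the transporter GAT-2 (-0.32, SE 0.19). Of 36 other interneuron genes with a row, 34 were tested, of which 4 had an unadjusted p under 0.05, against 4% of all tested genes. Npy, neuropeptide Y, stood at a mean of 23.7 CPM in wild type and 28.1 CPM in heterozygotes (log2 fold change 0.24, SE 0.09, edgeR, adjusted p = 0.978). Nr2f2, a transcription factor of interneurons from the caudal ganglionic eminence, stood at 27.2 and 20.4 CPM (log2 fold change -0.42, SE 0.13, edgeR, adjusted p = 0.962).

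Genotype was then compared within each set of prefixes (the plot of effects within each set). In set A, fitted alone, none of the 26 genes was called, nor was any of the 13852 genes tested there (0%, with 4.4% at an unadjusted p under 0.05), and the log2 fold changes were above 0 for 8 of the 26 genes and for 50.2% of all. In set B, fitted alone with sex as a term, 11 of the 26 genes were called, compared with 16.6% of the 13881 genes tested there. Higher in heterozygotes were 9 genes (8.88% of all tested genes were called higher) and lower were 2 (7.72% of all). Log2 fold changes in set B were above 0 for 20 of the 26 genes and for 50.3% of all genes tested, and their median was 0.12 against 0.00 over all genes. In that set sex and prefix are the same split, with 2 animals of prefix 119 and 4 of prefix 141.

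**Figure D3:**
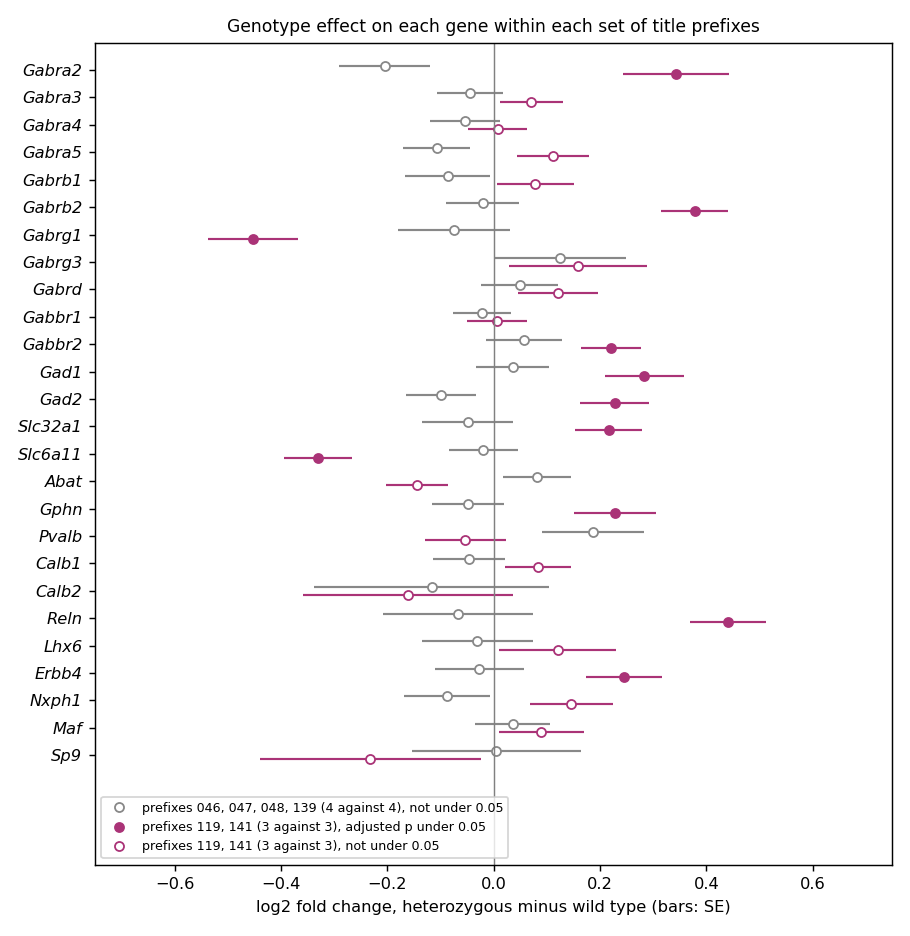
Log2 fold change of heterozygous against wild-type animals for the 26 genes with its standard error, fitted in set A (grey, 4 against 4 animals) and in set B (purple, 3 against 3 animals) separately, where filled points have an adjusted p under 0.05. In set B 9 filled points lie to the right of 0 and 2, Gabrg1 and Slc6a11, to the left, and set A has none.

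The called GABA-A subunits of set B went in both directions. Values of set B are given in the order of prefix 119 and then the animals of prefix 141. Gabrb2 was at 547, 422 and 420.5 CPM in the wild-type animals and at 608, 570.1 and 611 CPM in the heterozygotes. Every heterozygote was above every wild-type animal, and the log2 fold change was 0.38 (SE 0.06, edgeR, adjusted p = 0.000159). Gabrg1 was at 37.5, 55.1 and 46.3 CPM in wild type and at 29.3, 39.1 and 32.1 CPM in heterozygotes. The ranges overlapped slightly, but heterozygotes were lower within each prefix, with a log2 fold change of -0.45 (SE 0.08, edgeR, adjusted p = 0.00049). Gabra2 was at 38.7, 37.0 and 32.7 CPM in wild type and 63.8, 37.8 and 37.4 CPM in heterozygotes, with a log2 fold change of 0.34 (SE 0.10, edgeR, adjusted p = 0.0247). A single heterozygote of prefix 119 was far above all other animals, and without it the value was 0.12 (edgeR, adjusted p = 0.422). Without the wild-type animal of that prefix it was 0.11 (adjusted p = 0.461). Sex and prefix are the same split in set B, so either fit compares genotypes within prefix 141 alone. These fits are therefore nearly the same and are not separate checks. Gabrg1 and Gabra2 are neighbouring genes on chromosome 5 in RefSeq's GRCm38.p6 annotation, followed by Cox7b2, Gabra4 and Gabrb1. Of the pair, Gabrg1 was lower in heterozygotes than in wild-type animals of set B. The call of Gabra2 as higher rested on prefix 119 and was not made by DESeq2 (adjusted p = 0.0513). Gabra4 (0.01, SE 0.05) and Gabrb1 (0.08, SE 0.07) were not called.

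In set B, genes for making and loading GABA were higher in heterozygotes than in wild-type animals. Against set A, however, the mean log2 CPM of Gad1 in set B differed by -0.47 in wild type and -0.22 in heterozygotes. The differences were -0.34 and -0.02 for Gad2, and -0.80 and -0.52 for Slc32a1. For each of these genes, every wild-type animal of set B was below every wild-type animal of set A. Within set B, Gad1 stood at 262, 191 and 197 CPM in wild type and 264, 243 and 276 CPM in heterozygotes. The animals of prefix 119 were nearly equal, and those of prefix 141 were parted (log2 fold change 0.28, SE 0.07, edgeR, adjusted p = 0.012). Gad2 stood at 172, 131 and 131 CPM and at 174, 155 and 175 CPM, in the same arrangement (0.23, SE 0.07, edgeR, adjusted p = 0.0156). Slc32a1 stood at 80.7, 64.4 and 67.6 CPM and at 91.9, 74.7 and 80.1 CPM, with heterozygotes higher within each prefix (0.22, SE 0.06, edgeR, adjusted p = 0.0156). Slc6a11 went the other way. It was at 155, 212 and 199 CPM in wild type and at 145, 151 and 149 CPM in heterozygotes. No heterozygote reached the lowest wild-type animal, and the log2 fold change was -0.33 (SE 0.06, edgeR, adjusted p = 0.00062). Abat had a value of -0.14 (SE 0.06) that did not pass (edgeR, adjusted p = 0.0896). Of 5 markers of GABAergic neurons, Gad1, Gad2 and Slc32a1 were called higher in set B. The other markers, Dlx1 and Dlx6os1, had log2 fold changes below 0, the lowest -0.12, and were not called.

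Of the remaining members, 4 were called higher in heterozygotes of set B. Against set A, the mean log2 CPM of Reln in set B differed by -0.78 in wild type and -0.28 in heterozygotes. Reln was at 111, 98.7 and 83.7 CPM in wild type and 133, 125 and 139 CPM in heterozygotes, without overlap, and had the highest log2 fold change of the 26, 0.44 (SE 0.07, edgeR, adjusted p = 0.000179). Erbb4 was at 57.4, 48.5 and 50.6 CPM and at 59.5, 61.0 and 64.8 CPM, again without overlap (0.25, SE 0.07, edgeR, adjusted p = 0.0156). Genotype ranges parted in set B for 4 members, Gabrb2, Reln, Erbb4 and Slc6a11, and for 22.1% of all tested genes. The log2 fold change of Gabbr2 was 0.22 (SE 0.06, edgeR, adjusted p = 0.00724), and that of Gphn was 0.23 (SE 0.08, adjusted p = 0.0401). Pvalb (-0.05, SE 0.08), Lhx6 (0.12, SE 0.11), Maf (0.09, SE 0.08) and Sp9 (-0.23, SE 0.21), which mark or specify interneuron classes, were not called.

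Calls in set B rested on few animals. Leaving out each of the 6 animals in turn, Gabrb2, Gabrg1, Slc6a11 and Reln were called in 6 of 6 fits. These fits are not all separate checks. Those without wild type replicate 5 and without heterozygous replicate 5 both compare genotypes within the other prefix alone, and are nearly the same. Gad1, Gad2, Slc32a1, Gphn and Erbb4 were not called without wild type replicate 6 (adjusted p from 0.0647 to 0.201) or without heterozygous replicate 7 (0.0648 to 0.34), all by edgeR. Their log2 fold changes were 0.18 to 0.23 without the first animal. Without the second they were 0.12 for Gphn, 0.15 for Gad2, 0.18 for Slc32a1, and 0.19 for Gad1 and for Erbb4. Gabbr2, Gad2, Gphn and Erbb4 were not called without wild type replicate 7 (edgeR, adjusted p from 0.0681 to 0.103, log2 fold changes from 0.18 to 0.24), and Gabbr2 (adjusted p = 0.0574, log2 fold change 0.21) and Erbb4 (0.0621, 0.24) were not called without heterozygous replicate 6. Abat was called only in these nearly equal fits, without wild type replicate 5 (edgeR, adjusted p = 0.0234) and without heterozygous replicate 5 (0.0315). DESeq2 called 7 members in set B, and the share over all genes in that fit is not given here. Of the genes called by edgeR, DESeq2 did not call Gabra2 (adjusted p = 0.0513), Slc32a1 (0.05002), Erbb4 (0.0575) or Gphn (0.112). With genotype as the only term, edgeR called 0 members and 0 genes there.

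The difference between the sets was tested itself. All 14 animals were fitted with terms for sex and set and an interaction of genotype with set, and none of the 26 genes and 0% of all genes was called. An unadjusted p under 0.05 was found for 10 of the 26 genes and for 14.7% of all genes. The highest interactions, as set B minus set A on the log2 scale, were 0.56 for Gabra2 (SE 0.18, edgeR, adjusted p = 0.165), 0.51 for Reln (SE 0.19, adjusted p = 0.227) and 0.39 for Gabrb2 (SE 0.12, adjusted p = 0.147). Gabrg1 stood at -0.38 (SE 0.17) and Slc6a11 at -0.32 (SE 0.11). Without wild type replicate 4, Gabrb2, Gabrg1, Reln and Slc6a11 were called (edgeR, adjusted p from 0.0138 to 0.0375), against 4.06% of all genes tested. Without wild type replicate 5, Gabrb2, Gad1, Gad2 and Slc6a11 were called (edgeR, adjusted p from 0.00657 to 0.0299), against 6.13% of all genes. Without any filter on low counts the called members were Gabra2, Gabrb2 and Reln (edgeR, adjusted p from 0.00111 to 0.0163), against 1.94% of genes. With a block for each prefix in place of the terms for sex and set, a fit added after seeing the data, 5 of the 26 genes were called, against 5.55% of all tested genes. They were Gabrb2 at 0.40 (SE 0.10, edgeR, adjusted p = 0.0168), Reln at 0.50 (SE 0.12, 0.0216), Gabra2 at 0.54 (SE 0.14, 0.0285), Gad2 at 0.33 (SE 0.09, 0.0352) and Slc6a11 at -0.31 (SE 0.09, 0.0297). Leaving out each of the 14 animals in turn from that fit, Gabrb2 was called in 9 of 14 fits, Reln in 8, Gad2 in 6, and Gabra2 and Slc6a11 in 4 each, and their values kept their sign. Where a prefix holds a single animal of each genotype, leaving out either leaves its partner to the block. Such fits come in nearly equal pairs, so the 14 are not separate checks. No member was called without heterozygous replicate 7, where 1.31% of all genes were. Gabra2 had its lowest value, 0.32 (edgeR, adjusted p = 0.156), without heterozygous replicate 5.

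**Figure D4:**
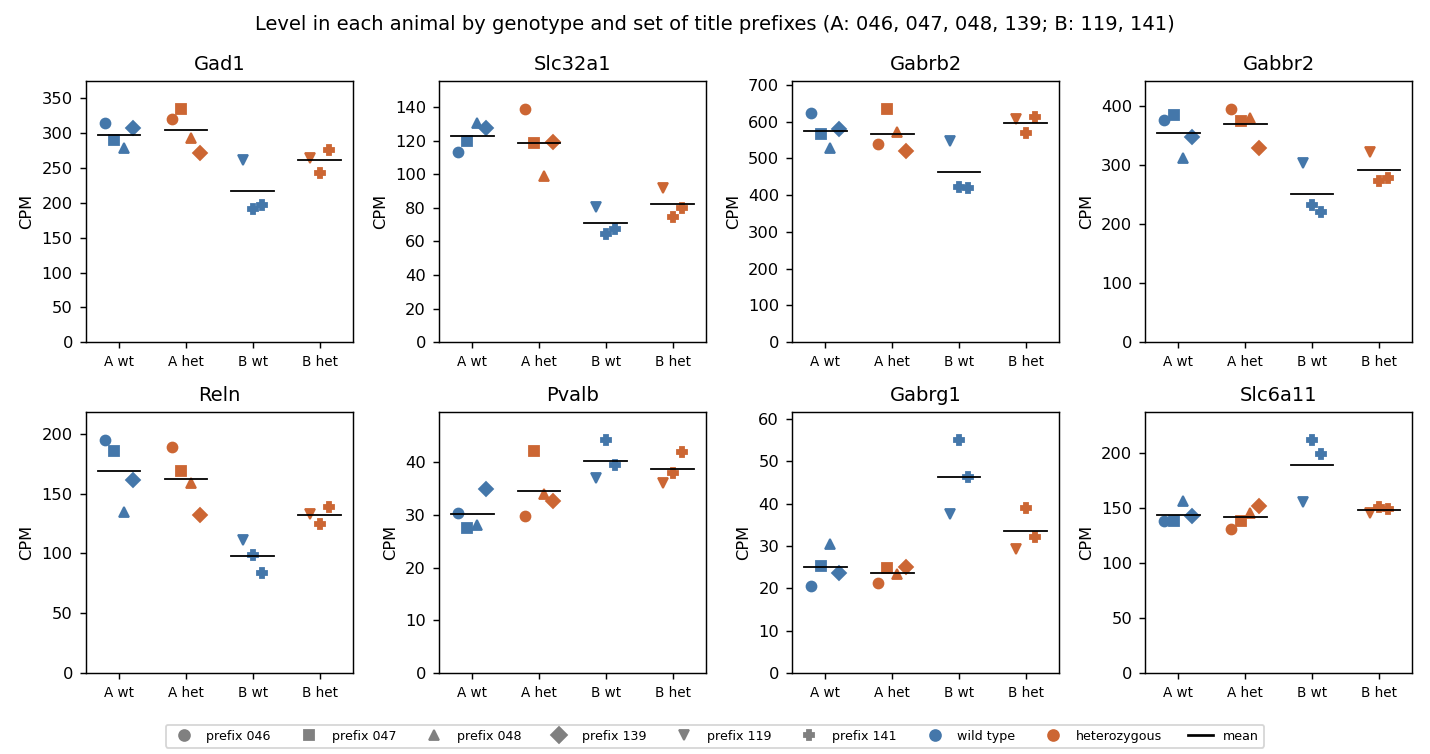
CPM of 8 genes in each of the 14 animals, by set and genotype, with the symbol giving the title prefix and the line the mean. In set B Gabrb2 and Reln are higher in every heterozygote than in every wild-type animal, Slc6a11 is lower, and Slc32a1 is lower in all animals of set B than in all of set A.

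Markers of other cells moved with genotype in set B as well (the plot of marker sums). The 7 astrocyte markers summed to 1692 to 2181 CPM in wild-type animals of set B, whereas its heterozygotes lay at 1466 to 1657 CPM, without overlap. All 7 were called lower in the fit of that set, with Gfap at a log2 fold change of -0.61 and Gja1 at -0.28. In set A these markers lay at 1176 to 1418 CPM for wild-type animals, with heterozygotes at 1135 to 1257 CPM. The excitatory neuron markers summed to 2118 to 2784 CPM in wild-type animals and 2449 to 2930 CPM in heterozygotes of set B. In set B, prefix 119 first, striatal markers summed to 674, 381 and 380 CPM in wild type and 583, 431 and 555 CPM in heterozygotes. None of the 8 striatal markers was called there. Microglial markers summed to 389 to 439 CPM and to 345 to 379 CPM, and 4 of 7 were called lower. Of the 7 oligodendrocyte markers 4 were called higher and 2 lower, and of the 6 endothelial markers 1 was called lower. Mitochondrial transcripts took 1.51% to 1.99% of counts in wild type and 1.11% to 1.56% in heterozygotes of set B. The part of these shifts in the values of the GABA genes was not tested.

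**Figure D5:**
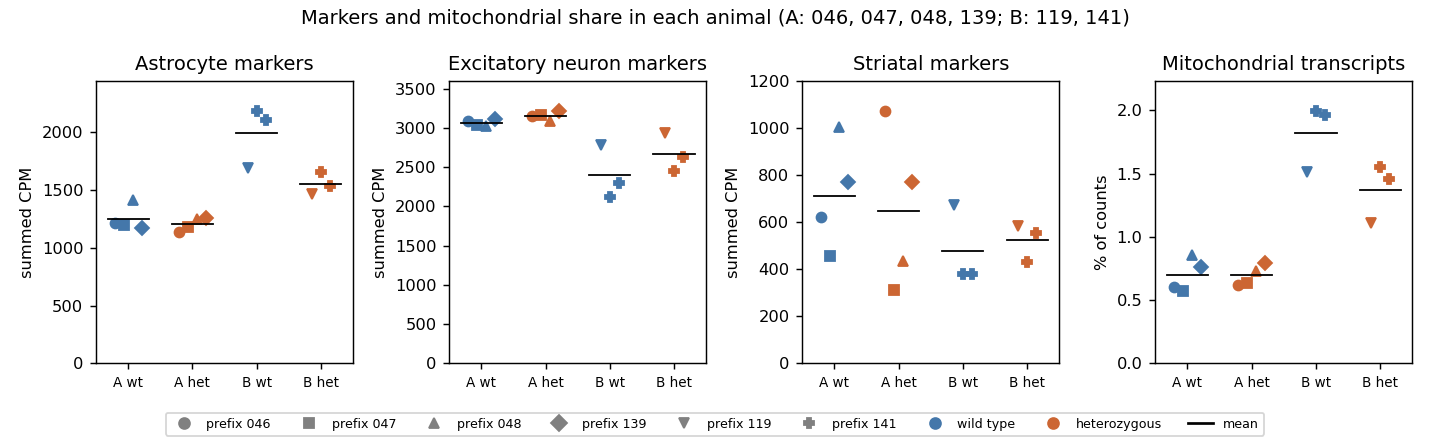
Summed CPM of astrocyte, excitatory neuron and striatal markers and the share of counts from mitochondrial transcripts in each of the 14 animals, by set and genotype, with the mean as a line. In set B astrocyte markers lie at 1692 to 2181 CPM in wild type and at 1466 to 1657 CPM in heterozygotes, and both lie above every animal of set A.

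Of the 17 other GABA genes tested, 4 were called in set B, 3 higher and 1 lower, where 8.88% of all genes were called higher and 7.72% lower. Higher were Slc12a5 (log2 fold change 0.29), the chloride exporter KCC2, Slc12a2 (0.24) and Shisa7 (0.19), an auxiliary protein of GABA-A receptors. Lower was Iqsec3 (-0.32), a partner of gephyrin. Of the 34 other interneuron genes 6 were called higher in heterozygotes, with log2 fold changes from 0.21 to 0.36. They were Npy, Kit, Kcnc1, Kcnc2, Crhbp and Cnr1. Cxcl14 was called lower (-0.39). Those 7 of 34 are near the 16.6% called over all genes. In set A none of either list was called. There Cck, cholecystokinin, had the smallest p among genes with a higher level, with a log2 fold change of 0.23 (SE 0.06, edgeR, adjusted p = 0.618).

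Animals of different prefixes were compared too. A test of prefixes of the same sex over all 14 animals called 9 of the 26 genes, against 32.2% of all genes tested, so the share of the members was near the background. The 9 were Slc32a1, Gabbr2, Gabrg1, Gabrd, Gad1, Erbb4, Reln, Gabra2 and Slc6a11. The test called no member when only the prefixes of set A entered (0.238% of genes called). Gabra2 was not called without wild type replicate 6 (edgeR, adjusted p = 0.0772) or heterozygous replicate 2 (0.0549), 5 (0.0523) or 7 (0.084). Slc6a11 was not called without wild type replicate 3 (edgeR, adjusted p = 0.128), 6 (0.0663) or 7 (0.0892), nor Erbb4 without wild type replicate 3 (0.0717). Leaving out 1 animal also brought in Gad2, Pvalb, Calb2, Lhx6 and Sp9 in 1 to 3 of the 14 fits.

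As a description of that split, Slc32a1 ran from 98.7 through 119 to 139 CPM in set A and from 64.4 through 77.4 to 91.9 CPM in set B. Gabrd ran from 56.7 through 60.3 to 67.7 CPM and from 40.2 through 46.4 to 50.4 CPM. These 2 genes were lower in every animal of set B than in every animal of set A, as 6.16% of tested genes were, and no member was higher in every animal of set B, as 5.96% of genes were. Differences of mean log2 CPM, set B minus set A, were -0.66 for Slc32a1, -0.43 for Gabrd, -0.42 for Gabbr2, -0.35 for Gad1 and -0.53 for Reln. On the same scale Gabrg1 was at 0.69, Gabra2 at 0.42, Pvalb at 0.29 and Slc6a11 at 0.22. The set B mean was below that of set A for 17 of the 26 genes and for 50.1% of all genes. The median over the 7 astrocyte markers was 0.54, over the 6 excitatory neuron markers -0.25, and over the 8 striatal markers -0.38. Their part in the differences between the sets was not tested.

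Sex was fitted beside genotype. None of the 26 genes was called between females and males (edgeR, adjusted p from 0.697 to 0.999), and 0.00724% of all genes were. The smallest p was that of Pvalb, with a log2 difference, female minus male, of 0.20 (SE 0.10, unadjusted p = 0.0564). Prefix is nested in sex, so sex and prefix cannot be told apart in this test. No member was called for a genotype effect that differed between the sexes (0% of all genes called, and an unadjusted p under 0.05 for none of the 26 and for 1.04% of all genes).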

How the data were processed

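RNA from the cortex of 14 mice was sequenced as single-end reads after a directional library kit, per the labels' protocols. The authors deposited a single table with whole-number counts of reads per gene symbol. Beside the counts the deposited table gives the authors' genotype comparison: log2 fold change, test statistic (a score that was not used), p-value and the p-value after adjustment. The submitters' processing notes list Trim Galore, Bowtie, STAR, bedtools and the mm9 build, with no role or version. The sources used here do not state the strand setting of the counting, so overlapping genes on opposite strands may share reads.

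Counts were tested with edgeR 4.0.16 (R 4.3.3, limma 3.58.1): filterByExpr by genotype, TMM factors, robust quasi-likelihood F tests, and Benjamini-Hochberg adjustment over all tested genes at 0.05. The genotype fit had sex as a term. Prefixes were tested within sex with 4 coefficients. DESeq2 1.42.0, RLE scaling, no filter, a prefix block, a set term, single sets and leaving out each animal were alternatives, and the script was tested on simulated counts. The filter left 13815 genes. Log2 CPM used a prior count of 2. Standard errors are the absolute log2 fold change divided by the root of F. Across genes, deviations from genotype means of animals with the same prefix but different genotype correlated at 0.191 to 0.507 in all 9 pairs, so the block is printed beside the genotype result. The block in the test of genotype by set was added after seeing the data. Those animals also share sex and set.

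All members were named or counted, with values given for the smallest p in each role, the extremes of level, and every called gene. The members, lists and sets were chosen with earlier results of these data known.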

Additional observations from a re-analysis of the deposited data

Results flagged for a closer look

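Of 52 groups of 7 animals examined, 26 genes in each of 2 genotypes, 2 held an animal far from the others, and chance alone marks about 5% of such groups. Gabra2 was at 63.8 CPM in heterozygous replicate 5, of prefix 119, while the other 6 heterozygotes lay between 23.9 and 37.8 CPM. Gabra4 was at 145 CPM in wild type replicate 3, of prefix 047, and the other wild-type animals lay between 166 and 179 CPM. Both are subunits of the GABA-A receptor.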

How the results depend on the processing

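Over all 14 animals, no member was called by genotype under any alternative except set B alone, where 11 were called, and no called direction reversed. The fold changes of 18 members, which were not called over all animals, changed sign under at least 1 of 22 alternatives. All genes called by genotype numbered 2; 56 with the prefix block, 15 with sex and set, 11 with DESeq2, 0 in set A alone, 2304 in set B alone, and 1 to 4 without single animals. In set A the block gave 2 genes and leaving out an animal 0 to 6. In set B, leaving out an animal gave 1241 to 2403 genes and 6 to 11 members, DESeq2 1460 genes and 7 members, and genotype as the only term 0 of both. The prefix test gave 33 genes and 0 members in set A alone, and 3388 to 4667 genes and 8 to 11 members without single animals. Without a filter it called 14 members, a count that cannot be read without the share over all genes, which is not given here. The interaction of genotype and set gave 5 members with the prefix block (5.55% of all genes), and 0 to 8 leaving out single animals as well (1.23% to 8.32%). It gave 3 members without a filter (1.94% of all genes) and 0 to 4 without single animals (0% to 6.13%). The sex test called 1 gene, 11 with DESeq2, 17 with a set term, 9 without a filter and 1 to 12 without single animals. The causes were not tested. Calb2 and Sp9 have the lowest counts. The labels do not say whether same-prefix animals are littermates.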
